A study of Mus musculus with 3 samples.

Results

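The miR-17 to miR-92a cluster was followed in the tibialis anterior (TA) muscle of WT mice through the first days of regeneration. Its members were a named set of 10 mature miRNAs of the cluster, out of 1138 mature mouse miRNAs in the count tables. All 10 had a row in each library, 9 had at least 1 read on day 0, and 10 had reads on days 1 and 3. The mice were C57BL/6, wild type and 10 weeks old, and the same genotype was used at every time point. Injury was made with cardiotoxin (CTX), a myofiber-lysing toxin of cobra venom, and muscle was taken on day 0 (uninjured), day 1 and day 3. The labels also mention saline as a control injection, without saying which library received it. RNA of 4 samples was pooled into 1 library per time point, so that there were 3 libraries and no replicates.

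For days 0, 1 and 3 the libraries held 8507580, 6421056 and 9795076 reads. Levels are given as CPM, counts per 1000000 reads of the library, and 3 reads, taken as the limit of detection, corresponded to 0.306 to 0.467 CPM. Every test on reads compared a pair of libraries and not the conditions, since the mice were pooled and their spread is not known. Intervals are 95% intervals and cover the counting error of reads only, since each time point had 1 library. PCR copies of a molecule are counted as separate reads, so the intervals may be too narrow for the counting of molecules. As a check of the tissue, all 8 myofiber miRNAs of a marker list (among them miR-1a-3p, miR-133a-3p and miR-206-3p) had reads in every library, and their summed level on days 0, 1 and 3 was 274414, 91698 and 277533 CPM. On day 3, 4 of the 8 were called lower than on day 0 and 1 higher, miR-206-3p of regenerating muscle, which went from 12384 to 180002 CPM, while miR-1a-3p went from 233587 to 88096 CPM.

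The cluster is made from a single primary transcript, the host RNA Mir17hg, which is folded into hairpins that Drosha and Dicer cut into mature miRNAs. The strand that is usually kept in the silencing complex is called the guide arm here, and the opposite strand of the same hairpin, which is mostly degraded, the passenger arm. The cluster is known for its induction by MYC and E2F factors in dividing cells and for its role in the survival of B cells, and it has been studied in proliferating myoblasts. Among known targets are E2f1 and Cdkn1a for miR-17 and miR-20a, Ccn2 for miR-18a and Itga5 for miR-92a.

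The sequences of the 10 members are shown because the seed, bases 2 to 8 from the 5′ end, sets which transcripts a miRNA can pair with. The seed is in capitals, and the sequences come from RefSeq (GRCm38.p6). The first set holds the guide arms, in the order of their hairpins.
mmu-miR-17-5p: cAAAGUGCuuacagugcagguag
mmu-miR-18a-5p: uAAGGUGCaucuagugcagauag
mmu-miR-19a-3p: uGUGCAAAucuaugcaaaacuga
mmu-miR-20a-5p: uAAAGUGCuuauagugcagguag
mmu-miR-19b-3p: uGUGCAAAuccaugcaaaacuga
mmu-miR-92a-3p: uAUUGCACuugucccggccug

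The passenger arms among the members carry other seeds, so that a change in the use of the arms changes the seeds present.
mmu-miR-17-3p: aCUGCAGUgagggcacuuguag
mmu-miR-18a-3p: aCUGCCCUaagugcuccuucug
mmu-miR-20a-3p: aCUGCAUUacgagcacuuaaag
mmu-miR-92a-1-5p: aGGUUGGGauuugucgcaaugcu

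The 6 guide arms thus had 4 seeds. AAAGUGC was shared by miR-17-5p and miR-20a-5p, GUGCAAA by miR-19a-3p and miR-19b-3p, while AAGGUGC of miR-18a-5p and AUUGCAC of miR-92a-3p were each carried by 1 guide arm. Counted from 1 at the 5′ end, miR-20a-5p differed from miR-17-5p by C1U and C12U, and miR-19b-3p from miR-19a-3p by U11C. The seeds of miR-17-5p and miR-18a-5p differed by A4G. These differences are few, so that how reads were divided between such pairs in the authors' counting is uncertain. Seed mates from other loci are also shown for the comparisons made with them.
miR-106b-5p: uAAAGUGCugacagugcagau
miR-93-5p: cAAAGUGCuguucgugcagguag
miR-18b-5p: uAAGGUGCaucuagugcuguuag
miR-25-3p: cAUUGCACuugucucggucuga

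In GENCODE M21 (GRCm38), Mir17hg is a lincRNA on the forward strand at chr14:115042879-115046727 with 2 exons. All 6 hairpins lie in exon 2, within 836 bp at chr14:115043671-115044506, in the order Mir17, Mir18, Mir19a, Mir20a, Mir19b-1 and Mir92-1. Their starts were 792, 972, 1121, 1278, 1426 and 1548 bp from the start of the gene. The mature sequences of miR-19b-3p and miR-92a-3p are each also encoded at 1 further locus on chromosome X, in Mir19b-2 and Mir92-2, and their reads cannot be assigned to a locus. The other 8 members had a single locus each.

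Summed over the 10 members, the cluster went from 10397 reads on day 0 to 34041 on day 1 and 55722 on day 3, or from 1222 CPM to 5302 and 5689 CPM. On days 0, 1 and 3 this was 0.122%, 0.530% and 0.569% of the library. The sum was 4.34-fold higher on day 1 than on day 0 (95% interval, 4.24 to 4.44) and 4.66-fold higher on day 3 (4.56 to 4.75). Most of this sum was miR-92a-3p, which held 86.9%, 74.1% and 75.4% of the cluster's reads on days 0, 1 and 3. Without miR-92a-3p and miR-19b-3p, the members with a further locus, the remaining 8 went from 57.2 CPM to 483 and 792 CPM, a change of 8.44-fold and 13.8-fold.

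The guide arms came in a similar order at each time point. On every day miR-92a-3p was the highest, followed by miR-19b-3p and miR-20a-5p, with intervals that did not overlap. On day 0 the order went on with miR-17-5p, miR-17-3p and miR-18a-5p, of which the last pair overlapped, and the 4 lowest, miR-92a-1-5p, miR-19a-3p, miR-20a-3p and miR-18a-3p, each overlapped with the next. On day 1, miR-18a-5p had moved beside miR-17-5p with overlapping intervals, and miR-18a-3p overlapped with miR-92a-1-5p. By day 3, miR-18a-5p stood above miR-17-5p with separate intervals, and miR-92a-1-5p and miR-19a-3p were the only neighbours that overlapped. A read spans a whole mature miRNA of 21 to 23 nt, so these levels were not divided by length, although library preparation is known to recover miRNAs of different sequence unequally.

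**Figure D1:**
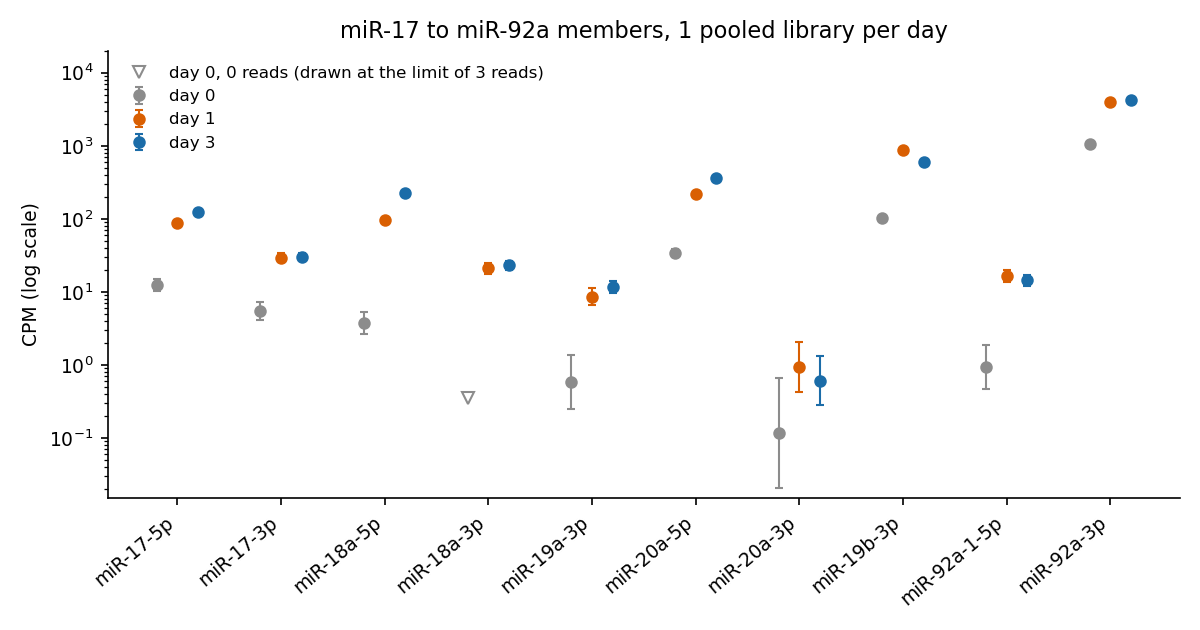
CPM of the 10 members, in the order of their hairpins, on a log axis in the libraries of day 0 (grey), day 1 (orange) and day 3 (blue), with 95% Wilson intervals from counting and no replicates. The open triangle marks the limit of 3 reads, 0.353 CPM, for miR-18a-3p, which had 0 reads on day 0. Each of the 10 members had a higher CPM on days 1 and 3 than on day 0, and miR-20a-3p is the only member whose day 0 interval overlaps with those of days 1 and 3.

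On day 1, 9 of the 10 members were upregulated, at a fold change of at least 2 and an adjusted p of at most 0.001 (Fisher's exact test, two-sided, against all other reads of the library, Benjamini-Hochberg adjustment over the 998 miRNAs with a read). Across all of these, 25.1% were called higher and 4.31% lower, and no member was called lower. On day 3, again 9 of 10 were upregulated and 0 were downregulated, where 26.1% of 1056 miRNAs were called higher and 4.36% lower. The member not called on either day was miR-20a-3p. With an assumed coefficient of variation of 0.4 between libraries, edgeR's exact test called 2 members higher on each day, miR-18a-5p and miR-18a-3p, and 2.81% and 5.11% of all miRNAs. The median log2 fold change of the members was 3.05 on day 1, where the median of all 678 miRNAs with a fold was 1.14, and 3.37 on day 3, where the median of 717 was 1.22, with 0 reads set to 3. Where a minimum of 10 reads was set for both libraries, 6 members had a median of 2.77 on day 1 and 2.94 on day 3, and all miRNAs that met it had 0.90 and 0.93.

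**Figure D2:**
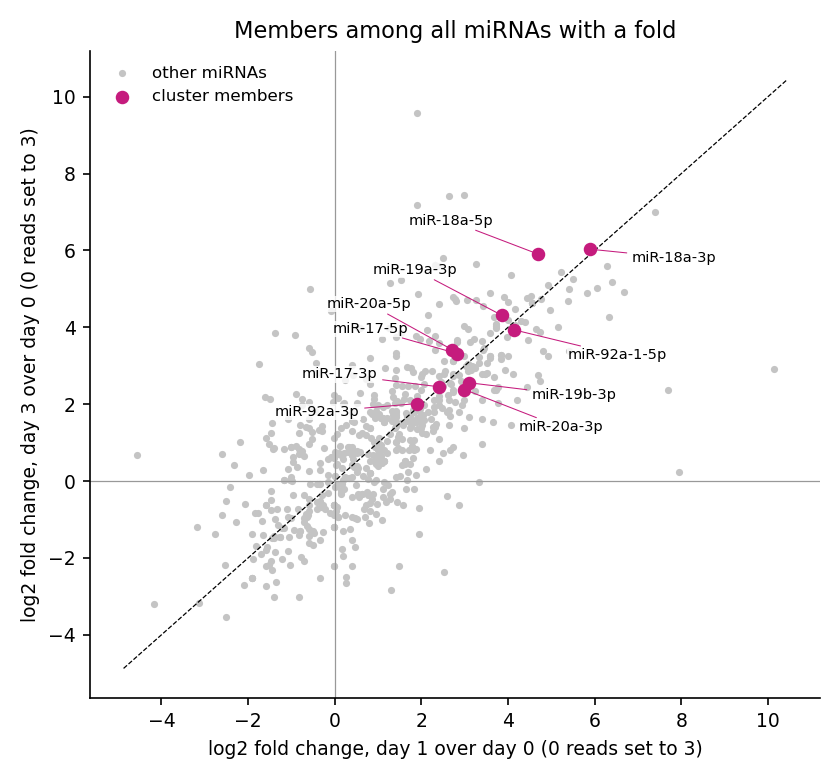
Log2 fold change in CPM over day 0 of each miRNA on day 1 (x axis) and on day 3 (y axis), with members in pink, other miRNAs in grey, 0 reads set to 3 and the dashed line where both days are equal. All 10 members lie above 0 on both axes, between 1.89 and 5.90 on day 1 and between 2.02 and 6.03 on day 3. Both axes share the day 0 library, so the slope of the cloud is not a result.

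These fold changes depend on what the libraries are scaled to. CPM rises for every other miRNA when abundant miRNAs take fewer reads, and edgeR's TMM factors lowered every log2 fold change by 0.94 on day 1 and by 0.93 on day 3, while DESeq2's median-of-ratios factors lowered them by 1.04 and 1.12. Under TMM factors, 8 members were upregulated on day 1 and 9 on day 3, where 12.9% and 15.6% of all miRNAs were called higher and 10.7% and 10.3% lower. Under median-of-ratios factors it was 8 on each day, where 11.8% and 14.0% were called higher and 12.1% and 11.7% lower. The member that lost its call was miR-92a-3p, with a log2 fold change of 0.94 on day 1 under TMM factors, and of 0.85 on day 1 and 0.90 on day 3 under median-of-ratios factors. All 10 members kept a positive log2 fold change over day 0 on both days under these scalings. Differences between members do not depend on the scaling, but for the members with few reads on day 0 they depend on the pseudocount.

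Among the guide arms, miR-18a-5p had the largest change. It had 32 reads on day 0 (3.76 CPM, 95% interval 2.66 to 5.31), 620 on day 1 (96.6 CPM, 89.3 to 104.5) and 2215 on day 3 (226.1 CPM, 216.9 to 235.7). No interval overlapped with another, and its rank among all miRNAs by reads went from 311 to 153 and 120. It was 25.7-fold higher on day 1 (18.0 to 37.9) and 60.1-fold higher on day 3 (42.5 to 88.1) than on day 0. With the same minimum of 10 reads, its log2 fold change ranked 11 of 393 on day 1 and 3 of 407 on day 3.

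Both guide arms with the AAAGUGC seed rose on day 1 and day 3, and had more CPM on day 3 than on day 1. miR-17-5p had 105, 564 and 1203 reads on days 0, 1 and 3 (12.3, 87.8 and 122.8 CPM), and miR-20a-5p had 289, 1426 and 3560 (34.0, 222.1 and 363.4 CPM). The fold changes over day 0 were 7.12 and 9.95 for miR-17-5p and 6.54 and 10.7 for miR-20a-5p. The log2 fold change of miR-17-5p minus that of miR-20a-5p was 0.12 on day 1 (-0.23 to 0.47) and then -0.10 on day 3 (-0.44 to 0.23), so that no difference in the change over day 0 was detectable at this depth. From day 1 to day 3 the difference was -0.23 (-0.40 to -0.06), with the larger change in miR-20a-5p.

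The pair with the GUGCAAA seed differed widely in level. miR-19b-3p had 877, 5712 and 5940 reads (103.1, 889.6 and 606.4 CPM), and miR-19a-3p had 5, 55 and 114 (0.588, 8.57 and 11.6 CPM). miR-19b-3p was the only guide arm with a lower CPM on day 3 than on day 1, and it held 99.4%, 99.0% and 98.1% of the reads of this seed on days 0, 1 and 3. The fold changes over day 0 were 8.63 and 5.88 for miR-19b-3p and 14.6 and 19.8 for miR-19a-3p, the latter with wide intervals (5.88 to 46.7 and 8.24 to 62.2) because of its 5 reads on day 0. The log2 fold change of miR-19a-3p exceeded that of miR-19b-3p by 0.76 on day 1 (-0.57 to 2.08) and by 1.75 on day 3 (0.46 to 3.05). With 1 CPM added to each level, the log2 fold change on day 1 was 2.59 for miR-19a-3p and 3.10 for miR-19b-3p, which turns the direction of the day 1 difference, and on day 3 it was 2.99 and 2.54.

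The most abundant member, miR-92a-3p, changed the least among the guide arms. It had 9033, 25228 and 42021 reads (1062, 3929 and 4290 CPM) and ranked 52, 37 and 30 among all miRNAs. Its fold change was 3.70 on day 1 (3.61 to 3.79) and then 4.04 on day 3 (3.95 to 4.13). Its log2 fold change minus that of miR-20a-5p was -0.82 on day 1 (-1.01 to -0.64) and then -1.41 on day 3 (-1.58 to -1.23). Minus that of miR-19b-3p it was -1.22 on day 1 (-1.33 to -1.11) and then -0.54 on day 3 (-0.65 to -0.43). Against miR-17-5p and miR-19a-3p the differences were also below 0 on both days with their intervals. The widest gap was to miR-18a-5p, whose log2 fold change was higher by 2.79 on day 1 (2.28 to 3.31) and by 3.90 on day 3 (3.39 to 4.40). miR-18a-5p in turn exceeded miR-17-5p, miR-20a-5p and miR-19b-3p on day 1 by 1.85, 1.97 and 1.57, with intervals above 0, while its difference from miR-19a-3p was 0.82 (-0.60 to 2.23).

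**Figure D3:**
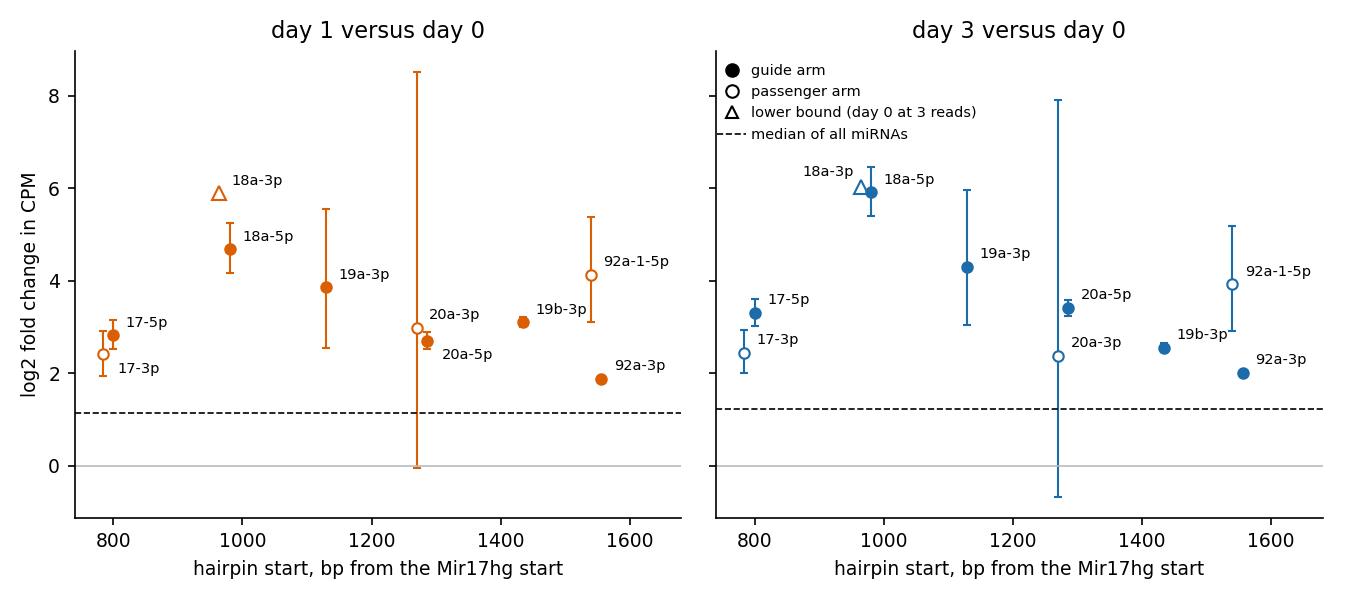
Log2 fold change in CPM over day 0 (y axis) of each member by the distance of its hairpin from the Mir17hg start in bp (x axis, the arms of a hairpin set slightly apart), on day 1 (left) and day 3 (right), with 95% intervals. Filled circles are guide arms, open circles passenger arms, and the dashed line is the median of all miRNAs. Triangles mark miR-18a-3p with its 0 reads of day 0 set to 3, drawn without an interval because its fold has no upper limit. The plot labels them as a lower bound, but the exact intervals began lower, at a log2 fold change of 5.58 on day 1 and 5.72 on day 3. The arms of the second hairpin, Mir18, had the highest values on both days, and miR-92a-3p the lowest. miR-19b-3p and miR-92a-3p are drawn at their Mir17hg hairpins, although each has a further locus and its reads cannot be assigned to either. The other arm of the last hairpin, miR-92a-1-5p, had 4.13 on day 1 and 3.94 on day 3. The intervals of miR-20a-3p reach below those of miR-92a-3p. With 1 CPM added, miR-20a-3p was the lower, with 0.79 and 0.53 on days 1 and 3 against 1.89 and 2.01 for miR-92a-3p.

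The passenger arms were low in every library. Together they went from 6.58 CPM on day 0 to 67.9 CPM on day 1 and 68.3 CPM on day 3, a fold change of 10.3 (7.80 to 13.9) and 10.4 (7.89 to 13.9). The 6 guide arms together changed by 4.31-fold and 4.62-fold, and the 5 without miR-92a-3p by 8.49-fold and 8.65-fold. These sums do not compare arms of the same hairpins, since miR-19a-3p and miR-19b-3p have no passenger arm among the members. Within hairpins the direction differed, with a smaller fold of the passenger arm in Mir17 and a larger one in Mir92-1. miR-17-3p had 47, 189 and 296 reads (5.52, 29.4 and 30.2 CPM) and rose by 5.33-fold and 5.47-fold, with smaller folds than its guide arm. miR-92a-1-5p had 8 reads on day 0 and 141 on day 3 (0.940, 16.5 and 14.4 CPM on days 0, 1 and 3) and rose by 17.6-fold (8.59 to 41.7) and 15.3-fold (7.56 to 36.2). Both were therefore higher in each injured library than on day 0, and the CPM intervals of days 1 and 3 overlapped.

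miR-18a-3p had 0, 135 and 226 reads on days 0, 1 and 3 (21.0 and 23.1 CPM on days 1 and 3). With the limit of 3 reads set for day 0, its ratio to day 0 was 59.6 on day 1 and 65.4 on day 3. These ratios are not lower bounds, since the exact intervals of the folds from 0 reads began at 47.8 and 52.8. With 1 CPM added, its log2 fold change was 4.46 and 4.59, and that of miR-92a-1-5p was 3.17 and 2.99. miR-20a-3p had 1, 6 and 6 reads, and the ratio of its CPM was 7.95 on day 1 (0.965 to 366) and then 5.21 on day 3 (0.632 to 240). Its difference from day 0 was not detectable at this depth (Fisher's exact test, adjusted p = 0.096 and 0.24). The largest adjusted p among the called members was 1.9e-14 on day 1 and 2.7e-24 on day 3, both for miR-19a-3p. A further arm of the cluster outside the 10 members, miR-19b-1-5p, had 3, 12 and 16 reads and was not called.

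How the arms of a hairpin were used was compared within each hairpin, as the share of passenger reads in the reads of both arms. These reads were tested with Fisher's exact test, two-sided, adjusted over all arm pairs with at least 10 reads in each library, and a call needed an odds ratio of at least 2 in either direction and an adjusted p of at most 0.001. On day 1 against day 0, 14.0% of 265 arm pairs were called, on day 3 against day 0 23.0% of 269, and on day 3 against day 1 16.8% of 297. In each comparison 1 of the 4 hairpins with both arms among the members was called.

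In Mir92-1, the day 0 share of miR-92a-1-5p was 0.0885% (Clopper-Pearson interval, 0.0382 to 0.174). It was 0.418% on day 1 (0.343 to 0.506), and the day 3 share was 0.334% (0.282 to 0.394). The share was thus higher on both days after injury, and the intervals of days 1 and 3 overlapped. The log2 odds ratio was 2.25 on day 1 (1.21 to 3.28, adjusted p = 1.8e-06 by Fisher's exact test) and then 1.92 on day 3 (0.89 to 2.95, adjusted p = 5.0e-05). Because miR-92a-3p also comes from Mir92-2, this ratio mixes hairpins, and the passenger arm of Mir92-2 was not analysed here.

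Mir18 is the hairpin that was called between the injured libraries, and its sequence is shown with both mature arms in capitals (RefSeq, GRCm38.p6, chr14:115043851-115043946, forward strand).
Mir18: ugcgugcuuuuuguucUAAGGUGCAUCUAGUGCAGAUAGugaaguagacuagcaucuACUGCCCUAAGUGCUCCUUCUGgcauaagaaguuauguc

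On day 0, 0 of 32 reads of Mir18 were miR-18a-3p, which allows a share of up to 9.38% by the limit of 3 reads and of 10.9% by the Clopper-Pearson interval. Its day 1 share was 17.9% (15.2 to 20.8) and its day 3 share 9.26% (8.14 to 10.5). Against day 0 neither was called (adjusted p = 0.012 and 0.21 by Fisher's exact test). Between days 1 and 3 the share of the passenger arm fell, with a log2 odds ratio of -1.09 (-1.43 to -0.76, adjusted p = 2.7e-09 by Fisher's exact test). The guide arm miR-18a-5p was 2.34-fold higher on day 3 than on day 1, while miR-18a-3p had a ratio of 1.10 (0.883 to 1.37). There were 4.59 guide reads for each passenger read on day 1 and 9.80 on day 3.

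The other hairpins had no called difference. Mir17 had the highest passenger shares of the hairpins compared. They were 30.9% (23.7 to 38.9) before injury, 25.1% (22.0 to 28.4) on day 1 and 19.7% (17.8 to 21.9) on day 3. The log2 odds ratio of day 3 against day 0 was -0.86 (-1.39 to -0.33, adjusted p = 0.0065 by Fisher's exact test), short of both thresholds. Day 3 against day 1 gave -0.45 (-0.75 to -0.15, adjusted p = 0.013 by Fisher's exact test), also short of both. In Mir20a the share was 0.345%, 0.419% and 0.168%, from 1, 6 and 6 reads of miR-20a-3p.

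**Figure D4:**
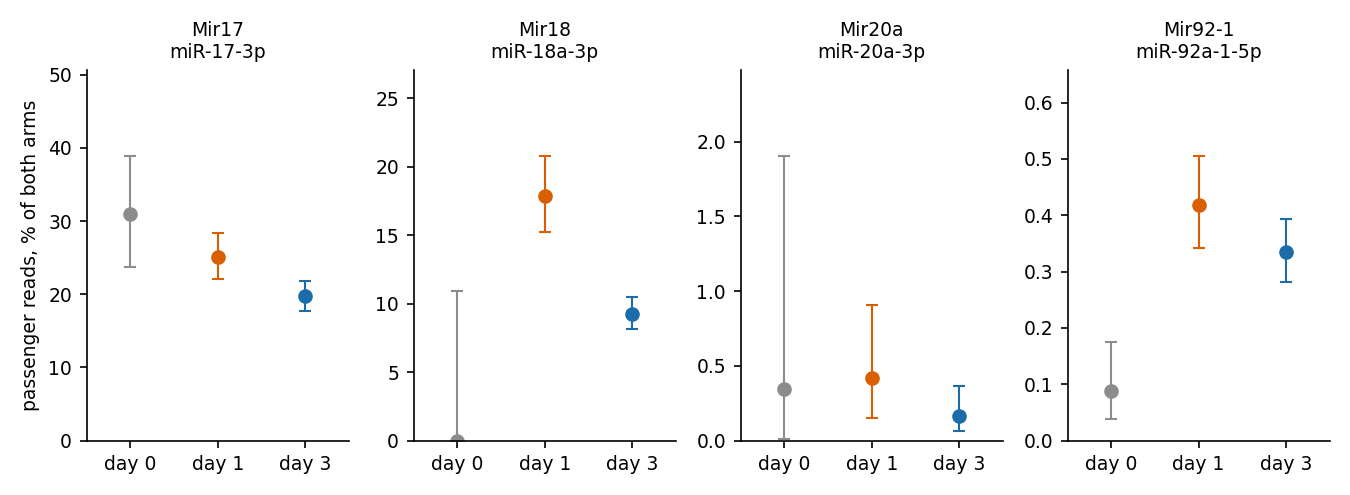
Passenger reads as a percentage of the reads of both arms, for the 4 hairpins with both arms among the members, on days 0, 1 and 3, with 95% Clopper-Pearson intervals and a y axis of its own, starting at 0, in each panel. The share in Mir18 was lower on day 3 than on day 1, and the share in Mir92-1 was higher on days 1 and 3 than on day 0.

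Between day 1 and day 3, 1 of the 10 members was called higher, miR-18a-5p, and 0 lower, where 9.60% of 1104 miRNAs were called higher and 7.16% lower. Its ratio of day 3 to day 1 was 2.34 (2.14 to 2.56, adjusted p = 9.9e-89 by Fisher's exact test). The ratio was 1.64 for miR-20a-5p (1.54 to 1.74) and 1.40 for miR-17-5p (1.26 to 1.55), below the fold threshold with intervals above 1. It was 0.682 for miR-19b-3p (0.657 to 0.707) and 1.09 for miR-92a-3p (1.07 to 1.11). The intervals of miR-17-3p, miR-18a-3p, miR-19a-3p, miR-20a-3p and miR-92a-1-5p included 1. The median log2 fold change was 0.13 for the members and -0.02 for all 729 miRNAs with a fold. With an assumed coefficient of variation of 0.2 between libraries, edgeR's exact test called 0 members between these days, and 5.43% of all miRNAs higher and 2.36% lower.

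miR-17-5p, miR-18a-5p, miR-20a-5p and miR-92a-3p share their seeds with other listed miRNAs from paralogous loci. The miR-106b to miR-25 cluster, from an intron of Mcm7, stood at 547, 3504 and 2557 CPM on days 0, 1 and 3, with 5 of its 6 arms called higher on each day. Its ratio of day 3 to day 1 was 0.730 (0.717 to 0.743), where that of the miR-17 to miR-92a cluster was 1.07 (1.06 to 1.09). The miR-106a to miR-363 cluster on chromosome X also encodes miR-19b-3p and miR-92a-3p, which were not counted for it. Of its 10 other arms 6 had a row, and these stood at 4.35, 20.4 and 11.3 CPM, with 3 arms called higher on day 1 and 1 on day 3.

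Pairs of seed mates from the cluster and from paralogous loci were compared by the difference of their log2 fold changes. miR-106b-5p had 95, 565 and 596 reads on days 0, 1 and 3, close to the 105 and 564 of miR-17-5p on days 0 and 1 but fewer than its 1203 on day 3. The change of miR-17-5p minus that of miR-106b-5p was -0.15 on day 1 (-0.58 to 0.29) and then 0.87 on day 3 (0.44 to 1.29). For miR-20a-5p minus miR-93-5p, which had 3952, 18295 and 21384 reads, it was 0.09 on day 1 (-0.10 to 0.28) and then 1.19 on day 3 (1.01 to 1.37). Neither pair differed detectably in its change on day 1. Both differed in it on day 3, with the larger log2 fold change in the member of the miR-17 to miR-92a cluster.

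miR-25-3p had 595, 3550 and 2957 reads. The change of miR-92a-3p minus that of miR-25-3p was -1.10 on day 1 (-1.23 to -0.97), the member rising less, and -0.10 on day 3 (-0.23 to 0.04). miR-18b-5p had 2, 16 and 7 reads, and miR-18a-5p exceeded it by 1.28 on day 1 (-0.91 to 3.46) and by 4.31 on day 3 (1.98 to 6.63). From day 1 to day 3 the member changed upward relative to its mate in these 4 pairs, by 1.02 (0.80 to 1.24) for miR-17-5p, 1.10 (1.00 to 1.19) for miR-20a-5p, 1.00 (0.93 to 1.07) for miR-92a-3p and 3.03 (1.74 to 4.32) for miR-18a-5p. The other mates of miR-92a-3p were compared after their values were seen. From day 1 to day 3 its change exceeded that of miR-92b-3p by 0.92 (0.66 to 1.17) and that of miR-363-3p by 0.68 (0.13 to 1.23), whereas against miR-32-5p, whose reads were 248, 564 and 1262, the difference was -0.43 (-0.57 to -0.28).

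The share of each seed's reads that the members held was computed for each day. For AAAGUGC, carried by 6 listed miRNAs, miR-17-5p and miR-20a-5p together held 8.84% (8.02 to 9.71) before injury, 9.52% (9.12 to 9.92) on day 1 and 17.8% (17.3 to 18.2) on day 3. Most reads with this seed were miR-93-5p, with 88.7%, 87.5% and 79.8%. The summed level of the seed on the 3 days was 524, 3256 and 2735 CPM. For AUUGCAC, miR-92a-3p held 90.8%, 85.1% and 90.3%, and miR-25-3p held 5.98%, 12.0% and 6.36%. The share of miR-92a-3p includes reads from Mir92-2 and is not that of the cluster alone. For AAGGUGC, miR-18a-5p held 94.1%, 97.5% and 99.7%.

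**Figure D5:**
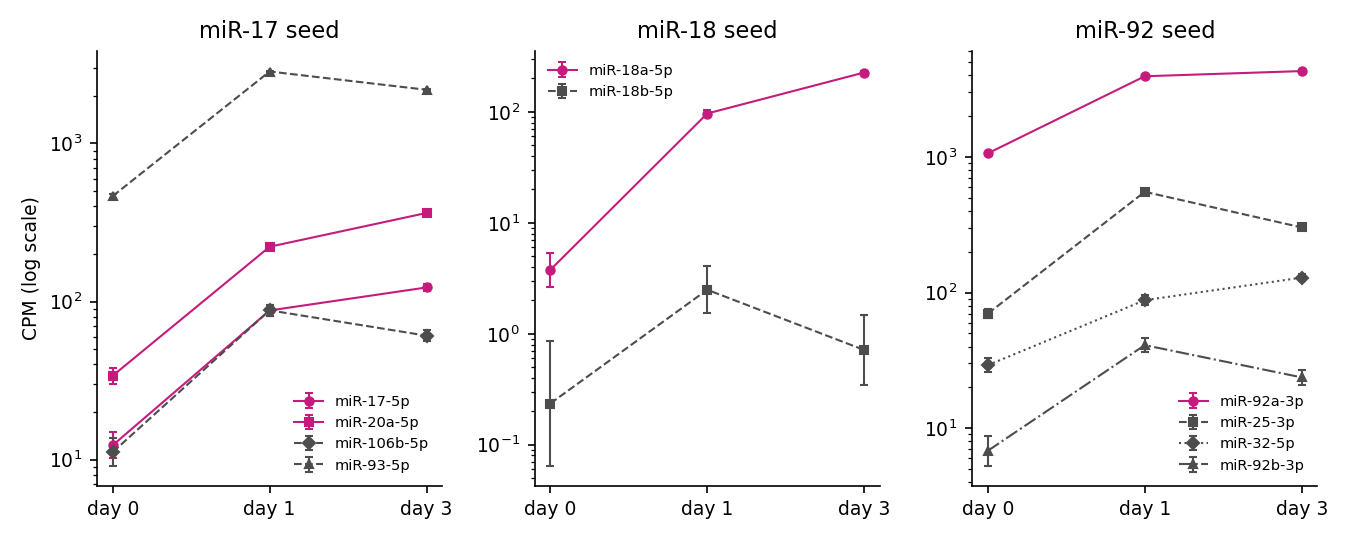
CPM on a log axis in the libraries of days 0, 1 and 3 of members (pink, solid lines) and of miRNAs with the same seed from other loci (grey, broken lines), for the seeds of miR-17, miR-18 and miR-92, with 95% Wilson intervals from counting. Between days 1 and 3 the pink lines run upward, whereas miR-93-5p, miR-106b-5p, miR-18b-5p, miR-25-3p and miR-92b-3p run downward and miR-32-5p runs upward.

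miRNAs typical of other cell types also differed between the libraries. The summed level of 6 leukocyte miRNAs (miR-223, miR-142a, miR-150 and miR-146a arms) was 5223, 20803 and 9052 CPM on days 0, 1 and 3, with 5 of 6 called higher on each day over day 0. For 3 erythroid miRNAs (miR-451a and miR-144 arms) it was 7145, 25335 and 12564 CPM, and for both arms of the endothelial miR-126a 59427, 132923 and 58732 CPM. All of these 5 were called higher on day 1, and 0 on day 3. Within the leukocyte list, miR-146a-5p went the other way after day 1, rising from 2000 to 2524 CPM by day 3. Most leukocyte reads of day 0 were miR-150-5p (40266 of 44436), the member not called higher on either day. Its level was 4733, 8307 and 3197 CPM, and it alone of the 6 ended below day 0, at a fold of 0.675. The leukocyte sum was 1.73-fold higher on day 3 than on day 0, whereas the miR-223 and miR-142a arms were 19.4-fold to 48.1-fold higher. No leukocyte, erythroid or endothelial marker was at 0 reads in any library. The leukocyte, erythroid and endothelial sums were thus highest on day 1, as were miR-19b-3p and the miR-106b to miR-25 cluster, and also miR-92a-1-5p and miR-20a-3p, whose intervals of days 1 and 3 overlapped. The other 7 members had their highest CPM on day 3, where the intervals of miR-17-3p, miR-18a-3p and miR-19a-3p overlapped with those of day 1. The myofiber sum was also highest on day 3, but only 1.01-fold above day 0. Of its 8 miRNAs, 4 were called lower than on day 0 and 1 higher, miR-206-3p. The part of these cells in the levels of the members was not tested, and in whole muscle more cells of a type and more RNA per cell cannot be told apart.

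By Euclidean distance of the log2 fold changes of days 1 and 3 over day 0 (CPM + 1), the miRNAs outside the cluster most like its sum, among 387 with at least 100 reads over the 3 libraries, were miR-125a-3p (distance 0.104), miR-466p-5p (0.113), miR-511-5p (0.204), miR-374b-5p (0.231) and miR-466b-5p (0.238). The nearest, miR-125a-3p, had 32, 132 and 220 reads. On day 0, miR-511-5p had 4 reads, miR-466b-5p 6 and miR-466p-5p 18, so their likeness depends on the CPM added. Without it, the log2 fold changes of days 1 and 3 were 3.58 and 3.86 for miR-511-5p. They were 3.069 and 3.045 for miR-466b-5p, 2.52 and 2.79 for miR-466p-5p and 2.45 and 2.58 for miR-125a-3p. For miR-374b-5p they were 1.90 and 2.20, and for the cluster's sum 2.12 and 2.22. The likeness rests on 2 fold changes that share the day 0 library and is a description of the libraries.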

How the data were processed

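Small RNAs of 18 to 30 nt from TA muscle were sequenced on the BGISEQ platform. For 1138 mature miRNAs, the authors deposited an unnormalized read count. The expression value that the authors deposited beside it was handled as a score, since how it was made is not given in the sources used here. Build GRCm38.p6, HISAT and Bowtie2 are named in the submitters' processing notes, without versions. Time points came from the labels, with 1 library each. The members and lists were chosen with earlier results of these data known. The miRNAs named were the 10 members, the other arms of their hairpins, the arms of 2 paralogous clusters, seed families and the 5 nearest in pattern.

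Reads were divided by the library total (6421056 to 9795076). The thresholds, a fold of 2 and an adjusted p of 0.001, follow the study's methods. A miRNA with 0 reads counted as past the fold when the test called it. Intervals are Wilson for CPM, exact conditional for folds, Clopper-Pearson for shares, and Wald for odds ratios and differences of log2 fold changes. The procedure was tested on simulated data. Alternatives were scaling by edgeR or DESeq2 factors or without the 10 highest miRNAs, the deposited scores for folds, a pseudocount of 1 CPM, read minimums, other thresholds, edgeR's exact test at assumed coefficients of variation (CV) of 0.2 and 0.4, and reads drawn down to the smallest library. Sequences came from RefSeq, matched by name, and gene models from GENCODE M21. Python 3.11.15, scipy 1.17.1, R 4.3.3, edgeR 4.0.16 and DESeq2 1.42.0 were used. miR-19a-5p, miR-92a-2-5p, miR-19b-2-5p, miR-106a-3p and miR-18b-3p were not analysed here.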

Additional observations from a re-analysis of the deposited data

How the results depend on the processing

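The 9 members called on each day over day 0 were reduced to 2 on day 1 and 2 on day 3, miR-18a-5p and miR-18a-3p, by edgeR's exact test at an assumed CV of 0.4, where 2.81% and 5.11% of all miRNAs were called higher. The single call of day 3 against day 1 became 2 with the deposited scores or a fold threshold of 1.5 (10.9% and 12% of all miRNAs called higher), and 0 with a threshold of 4 or a CV of 0.2 or 0.4 (5.71%, 5.43% and 0.815%).

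The log2 fold change of the cluster's sum on day 1 was 2.12, and 1.17 under TMM and 1.08 under median-of-ratios factors, 1.50 without the 10 highest miRNAs in the totals, 1.41 with the deposited scores and 3.08 without miR-92a-3p and miR-19b-3p. On day 3 it was 2.22, and 1.29, 1.10, 1.71, 1.74 and 3.79 in the same order. Day 3 against day 1 gave 0.10, and 0.024 with median-of-ratios factors, 0.21 without the 10 highest, 0.33 with the scores and 0.71 without the pair. Of the members, miR-17-3p turned to -0.040 on day 3 against day 1 with median-of-ratios factors, and miR-92a-1-5p to 0.14 with the scores; the cause was not tested.

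No paired analysis was possible because each time point had 1 library. The passenger share of miR-92a with both 5p arms could not be run, since miR-92a-2-5p was not analysed here. Depth limited miR-20a-3p, miR-19a-3p and miR-18a-3p on day 0, with 0 to 5 reads each.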
